A study of Mus musculus with 6 samples.

Results

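The Schlafen genes of the mouse were examined in microglia, the resident macrophages of the brain and spinal cord. The 7 members, Slfn1, Slfn2, Slfn3, Slfn4, Slfn5, Slfn8 and Slfn9, were taken by symbol from an RNA-seq table of 42303 Ensembl genes, and all 7 were found. The cells came from Ccr2 rfp/+::Cx3cr1 gfp/+ mice on a C57Bl/6 background, in which 1 copy each of the chemokine receptor genes Ccr2 and Cx3cr1 carries a fluorescent reporter. Naive mice, taken before disease induction, were set against mice at peak disease in EAE (experimental autoimmune encephalomyelitis). This mouse counterpart of multiple sclerosis was induced at 24 to 28 weeks of age with the MOG peptide 35 to 55, a fragment of a myelin protein. The age of the naive mice is not given. Cells of 30 mice per condition were pooled, from brain by the design text and from brain and spinal cord by the protocol, and sorted after staining for the surface proteins F4/80 and CD45. The bounds of the gate, and whether the reporters were used in it, are not given. RNA was sequenced in 1 library per condition (31282093 naive and 36561934 peak counts), and captured methylated DNA (MiGS) in 2 libraries per condition, which the design text calls biological replicates. RNA-seq differences have no replicate check. They carry no p-value, and their 95% intervals (exact, Clopper-Pearson) cover counting error only. In such bulk samples, a change in the number of cells of a type and a change in RNA per cell cannot be told apart.

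Schlafen proteins are interferon-inducible proteins of immune cells that share a domain related to nucleases acting on transfer RNA. The short forms, Slfn1 and Slfn2, consist of little more than that domain, Slfn3 and Slfn4 carry an additional linker domain, and the long forms Slfn5, Slfn8 and Slfn9 add a region resembling RNA helicases. Slfn1 was described as a brake on T cell growth, and loss of Slfn2 deprives T cells and monocytes of quiescence. Slfn4 is known from activated myeloid cells.

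Of the 7 Schlafen genes, 6 were at least 2-fold higher in the peak library and 1, Slfn8, was not. All 7 had at least 50 counts over both libraries, the minimum for comparison. Of the 14367 genes with that many counts, 12.1% reached 2-fold in the direction of the peak library and 8.91% in that of the naive library. The median log2 ratio of peak to naive was 2.80 over the 7 genes and 0.03 over all genes compared. The 6 higher genes spanned log2 ratios from 2.57 to 4.83. At the stricter limit of 4-fold, which 5.12% of all genes passed, the same 6 genes lay above it. Slfn1 and Slfn4 also passed 8-fold, as did 3.02% of all genes.

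**Figure D1:**
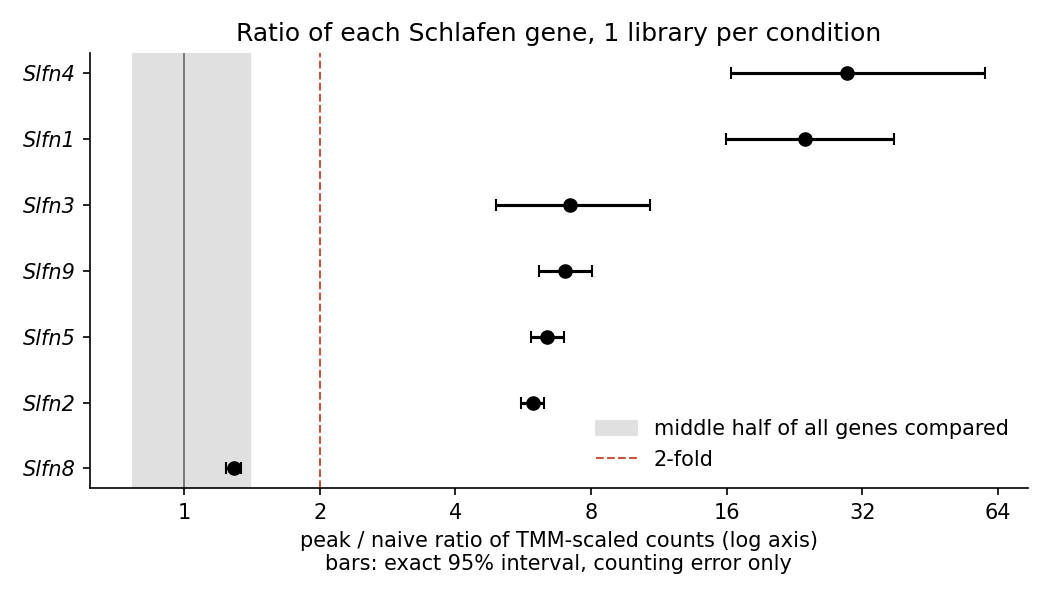
Ratio of TMM-scaled counts, peak over naive, for each Schlafen gene on a log axis, with exact 95% intervals for counting error, the range between the quartiles of all genes compared in grey and the 2-fold line dashed. Slfn8 lies at 1.29, in the grey band, and the other 6 genes lie between 5.93 and 29.6.

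Among the short forms, Slfn2 was the more abundant in both libraries. It had 1312 naive and 8360 peak counts, or 25.2 and 137 in the deposited FPKM, a level scaled to gene length and sequencing depth. Its scaled counts were 5.93-fold higher at peak (interval 5.59 to 6.29), and by FPKM it went from place 1974 to place 309 of all genes in the table. Slfn1 had 24 naive and 617 peak counts (0.412 and 9.05 FPKM), a 23.9-fold higher value at peak (interval 15.9 to 37.6). The interval of Slfn1 lay wholly above that of Slfn2, so the counting error of these libraries does not cover the gap between their ratios.

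The forms with a linker domain were the rarest Schlafen transcripts at peak. Slfn4 had 11 naive and 350 peak counts (0.0886 and 2.41 FPKM). Its ratio of 29.6 (interval 16.3 to 59.9) exceeded those of 99.1% of all genes compared. Its log2 ratio was 4.83 from scaled counts and 3.74 from log2(FPKM + 0.1), where the added 0.1 exceeds its naive level. By the same measures Slfn1 had 4.55 and 4.16, so the order of the pair is reversed on the FPKM scale with 0.1 added. Slfn3, its neighbour on the chromosome, had 31 naive and 239 peak counts (0.546 and 3.60 FPKM) and was 7.18-fold higher (interval 4.92 to 10.8). The intervals of Slfn4 and Slfn1 overlapped, and both lay above the interval of Slfn3.

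Among the long forms, Slfn5 and Slfn9 had ratios close to those of Slfn2 and Slfn3. Slfn5 had 641 naive and 4402 peak counts (4.63 and 27.2 FPKM, 6.39-fold higher, interval 5.88 to 6.95). Slfn9 had 244 naive and 1834 peak counts (1.65 and 10.6 FPKM, 6.996-fold higher, interval 6.12 to 8.03). Ordered by ratio, neighbouring intervals among Slfn2, Slfn5, Slfn9 and Slfn3 overlapped. Such overlap is no test of a difference, and these 4 ratios were not tested against each other. Slfn8 stood apart, with 4563 naive and 6310 peak counts (35.7 and 42.2 FPKM). Its ratio was 1.29 (interval 1.24 to 1.34), and 69.6% of all genes compared had a lower one.

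**Figure D2:**
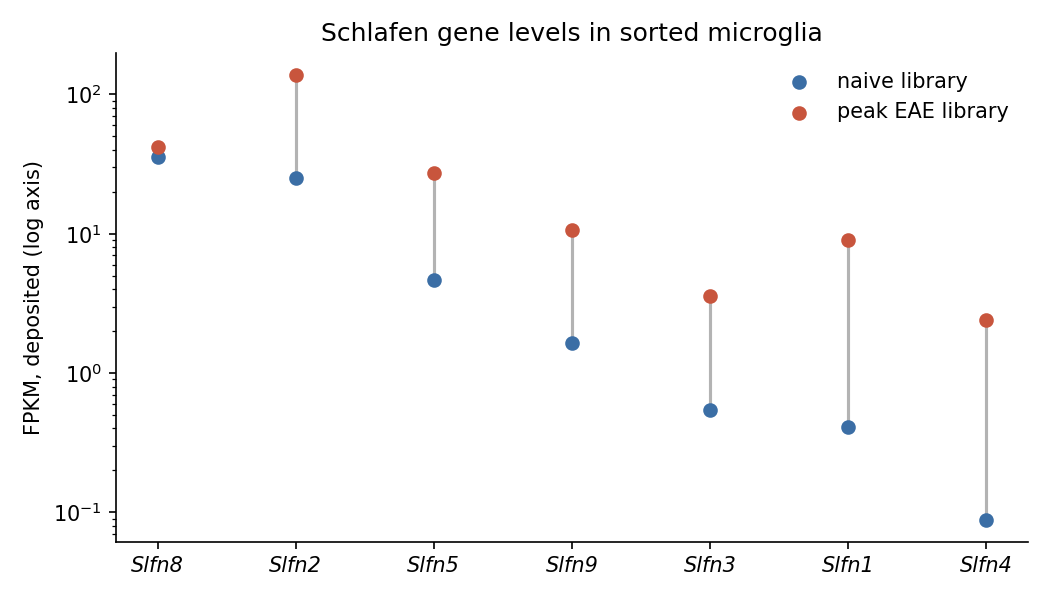
Deposited FPKM of each Schlafen gene on a log axis in the naive (blue) and peak (red) library, 1 library each, ordered by naive level. Slfn8 leads at 35.7 in the naive library and barely moves, and Slfn2 leads at 137 in the peak library.

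By level per length, the order of the family in the naive library ran from Slfn8 and Slfn2 through Slfn5, Slfn9, Slfn3 and Slfn1 to Slfn4. In the peak library Slfn2 came first, followed by Slfn8, Slfn5, Slfn9, Slfn1, Slfn3 and Slfn4. Slfn8 made up 52.3% of the summed FPKM of the 7 genes in the naive and 18.1% in the peak library. The share of Slfn2 went from 37.0% to 59.1%, and that of Slfn5 from 6.79% to 11.7%. The summed level was 68.2 FPKM in the naive and 232 FPKM in the peak library, a ratio of 3.41. Because Slfn8 alone held about as much naive FPKM as the other members together, this sum moved less than most single members.

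**Figure D3:**
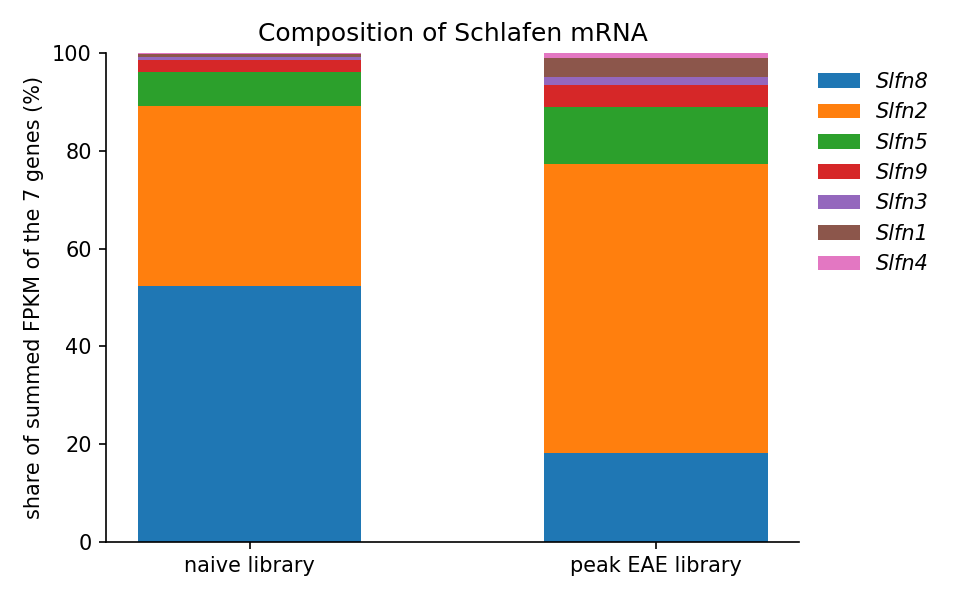
Share of each Schlafen gene in the summed deposited FPKM of the 7 genes, in percent, stacked for the naive and the peak library. The naive library is mostly Slfn8 (52.3%), and the peak library mostly Slfn2 (59.1%).

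Schlafen genes are close paralogs, and no source used here says how reads that fit several copies were counted, so reads may be split between them. The likeness of their transcripts was not examined, and only promoters were compared. In global alignments of the 300 bases around each start (250 before and 50 after, from RefSeq, build GRCm38.p6), Slfn8 and Slfn9 were identical at 247 of 305 aligned positions, or 81.0%. The other 20 pairs of members reached from 44.2% to 51.9%. The promoters of Slfn9 (chr11:82991781-82992080, minus strand) and Slfn8 (chr11:83020761-83021060, minus strand) are shown because this pair, whose promoters were the most alike of the 21 pairs aligned, had different RNA ratios. Capitals mark matches to the interferon-stimulated response element (ISRE), searched on both strands as GAAA, any 2 bases and GAAA.
Slfn9: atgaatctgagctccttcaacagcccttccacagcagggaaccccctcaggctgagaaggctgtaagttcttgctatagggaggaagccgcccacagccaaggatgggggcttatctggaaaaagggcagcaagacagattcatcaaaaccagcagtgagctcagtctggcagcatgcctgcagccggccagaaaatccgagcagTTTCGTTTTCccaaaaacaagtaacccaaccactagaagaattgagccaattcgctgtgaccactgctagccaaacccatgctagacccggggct
Slfn8: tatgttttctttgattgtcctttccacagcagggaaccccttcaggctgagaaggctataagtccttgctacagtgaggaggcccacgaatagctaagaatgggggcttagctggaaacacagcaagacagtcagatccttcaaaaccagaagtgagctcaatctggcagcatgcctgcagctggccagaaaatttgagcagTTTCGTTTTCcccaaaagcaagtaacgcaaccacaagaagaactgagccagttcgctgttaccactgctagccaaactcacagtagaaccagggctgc
The same 10 letters matched in both promoters, and the match began 45 bases before the start of Slfn9 and 48 bases before the start of Slfn8. Their RNA ratios were 6.996 and 1.29. The table lists a second start of Slfn8, whose window was not used.

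The interferon element was matched in 3 of the 7 promoters, those of Slfn5, Slfn8 and Slfn9, and in 3.44% of all 32851 promoters in the table. In Slfn5 (chr11:82951917-82951986, plus strand) the match lay 155 bases before the start, and ran into a stretch of adenines.
Slfn5: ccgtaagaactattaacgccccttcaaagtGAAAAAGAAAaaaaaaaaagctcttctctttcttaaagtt
The promoters of Slfn1, Slfn2, Slfn3 and Slfn4 held no such match. Slfn2 held the single match to the composite element of ETS and interferon regulatory factors (GGAA, any 2 bases and GAAA, 2.72% of all promoters), and Slfn4 the single match to the AP-1 element (TGANTCA, 7.81%). None of the 7 held TTCNNNGAA, the element of STAT dimers, which 8.3% of all promoters held. The match in Slfn2 overlapped the longest run of letters common to the promoters of Slfn1 to Slfn4, which is in capitals in the segments shown next. That run, ACTTCCTGG, was found in the sequences after they had been read, and 0.843% of all promoters held it on either strand. The segments shown are chr11:83116726-83116774, chr11:83065037-83065085, chr11:83191268-83191316 and chr11:83175093-83175141, all on the plus strand.
Slfn1: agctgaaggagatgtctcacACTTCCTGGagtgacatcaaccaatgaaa
Slfn2: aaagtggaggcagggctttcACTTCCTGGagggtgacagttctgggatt
Slfn3: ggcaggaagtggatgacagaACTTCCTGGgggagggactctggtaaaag
Slfn4: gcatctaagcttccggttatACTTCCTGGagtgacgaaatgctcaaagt
The run began 74, 55, 42 and 73 bases before the starts of Slfn1, Slfn2, Slfn3 and Slfn4. A match describes letters only and shows no binding.

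Interferons reach their target genes through cell surface receptors, the Janus kinases bound to them, and STAT and IRF transcription factors. Genes for the interferons themselves were near the limit of detection, and none of 11 had 50 counts. Ifnb1, which encodes interferon beta, had 0 naive and 32 peak counts, and Ifng, which encodes interferon gamma, had 1 and 16. Of 8 measured receptor and kinase genes none was at least 2-fold higher and 1 was lower (median log2 ratio 0.12). That gene was Ifngr1, a chain of the interferon gamma receptor, with 34016 naive and 18195 peak counts (2.01-fold lower, interval 1.97 to 2.05). With DESeq2 size factors it was 1.96-fold lower, so this call depends on the scaling.

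Of 9 factors, 4 were higher and none lower (median 0.46). Irf7, which amplifies the interferon response, was 15.5-fold higher (interval 13.9 to 17.4), Stat2 5.49-fold (5.21 to 5.79) and Irf1 5.30-fold (5.11 to 5.51). Irf9, a DNA-binding partner of Stat2, was 1.37-fold higher. Of 30 genes of the type I interferon response, 29 were at least 2-fold higher (median 2.77), beside 6 of the 7 Schlafen genes (median 2.80). The exception was Ddx58, a sensor of viral RNA, at 1.51-fold. Zbp1, a sensor of nucleic acids, was 55.1-fold higher and Oasl1, an antiviral protein, 24.0-fold.

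Since Slfn1 and Slfn2 are known for holding cells in quiescence, genes of cell division are given beside them. Of 15 such genes 14 were at least 2-fold higher at peak and none lower (median log2 ratio 4.78), among them the spindle checkpoint kinase gene Bub1 (52.3-fold) and Ube2c, which directs mitotic cyclins to degradation (47.8-fold). Pcna, the replication clamp, was 1.72-fold higher. The genes whose pair of FPKM values lay nearest to each member were searched by Euclidean distance on the log2(FPKM + 0.1) scale over the 2 libraries. For Slfn1 these were Ndc80 and Cdca3, for Slfn4 Gcm2 and Ttk, for Slfn3 Fam241a and E2f1, and for Slfn9 Ncapd2. Slfn2 lay nearest to Irf1 (distance 0.14) and Rnf213 (0.27), and Slfn5 nearest to Hist1h2ae and Oas1a (0.13 and 0.19). The nearest to Slfn8 were Stt3b and Gbgt1. With 2 libraries, many genes share such a pattern.

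The 7 genes lie in 1 cluster of 264 kb on chromosome 11 (82951349 to 83215154, build GRCm38). From the low coordinate, the order is Slfn5, Slfn9, Slfn8, Slfn2, Slfn1, Slfn4 and Slfn3, with Slfn8 and Slfn9 on the minus strand. The long forms lie at the low end, Slfn5 from 82951349 to 82964850, Slfn9 from 82974316 to 82991830 and Slfn8 from 83002125 to 83020810. The short forms lie in the middle, Slfn2 from 83065112 to 83070678 and Slfn1 from 83116820 to 83122670. The forms with a linker domain lie at the high end, Slfn4 from 83175172 to 83190216 and Slfn3 from 83191330 to 83215154. Slfn10-ps, a pseudogene between Slfn8 and Slfn2, had 91 naive and 305 peak counts and was 3.12-fold higher (interval 2.46 to 3.99). Slfn8, the gene with the smallest ratio, thus lay between Slfn9 and Slfn10-ps, which were both at least 2-fold higher. Slfn14 and the antisense gene Slfn5os had 0 counts in both libraries, and Slfnl1, a relative on another chromosome, had 9 and 5.

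Of 13 other genes with at least 50 counts within 250 kb of the cluster, the 6 on the low side ran from 0.844-fold to 1.25-fold and none reached 2-fold. Of the 7 on the high side, the noncoding genes AI662270 (184 and 432 counts, 2.19-fold, interval 1.83 to 2.61) and AA465934 (29 and 149 counts, 4.78-fold, 3.20 to 7.39) were higher. Mmp28, which encodes a matrix metalloproteinase, was 3.35-fold lower (665 and 213 counts). Ap2b1, on the far side of AA465934, was at 1.07-fold.

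**Figure D4:**
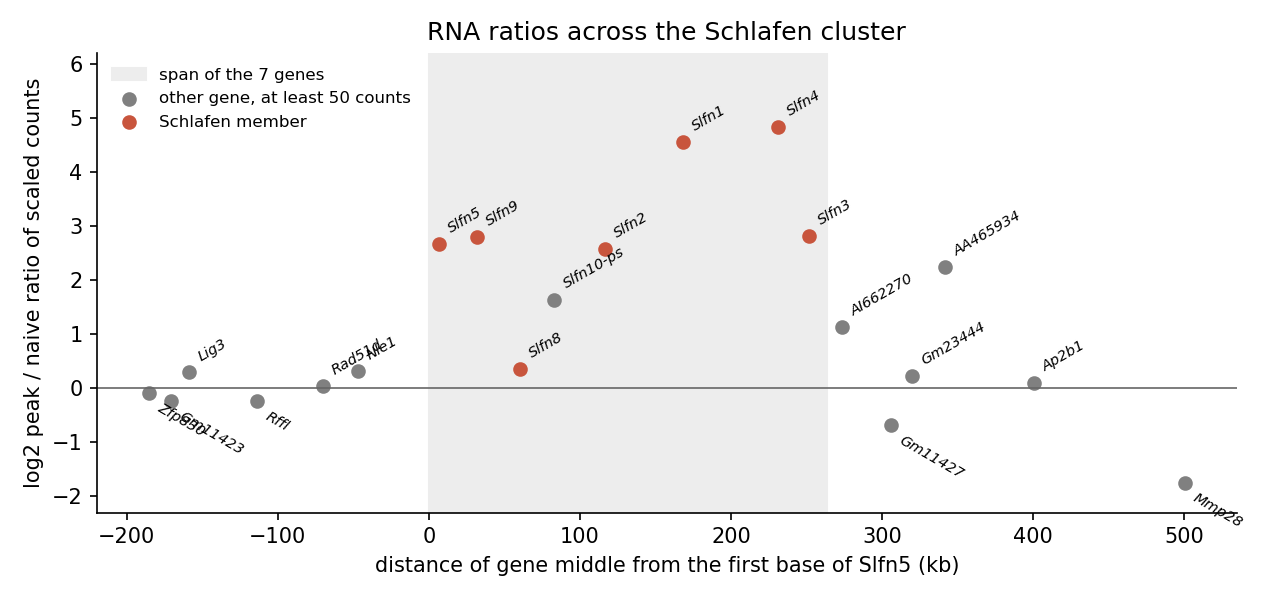
Log2 ratio of scaled counts, peak over naive, against distance in kb of the gene's middle from the first base of Slfn5, for the 7 Schlafen genes (red) and 13 of the 14 other genes with at least 50 counts (grey). The 6 genes on the low side sit near 0, 6 Schlafen genes lie between 2.57 and 4.83, and Slfn8 lies at 0.36 inside the cluster.

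MiGS captures DNA fragments with methylated CpG through a methyl-CpG binding domain. At the gene starts, taken from 1000 bp before to 500 bp after the outer end of each gene, Slfn4 alone among the 7 carried strong signal. Its signal per kb was 48.4 in naive replicate 1 and 219 in naive replicate 2, against 30.9 in peak replicate 1 and 51.2 in peak replicate 2 (means 134 ± 121 and 41.0 ± 14.3, SD, n = 2 per condition). Naive replicate 2 was far above the rest, and naive replicate 1 lay below peak replicate 2, so the groups overlapped. Over all 4 libraries 90.9% of the 17850 gene starts tested had a lower mean than Slfn4. The starts of Slfn1, Slfn2, Slfn3 and Slfn8 had no deposited window in any library and were taken as 0. Every window deposited in and around the cluster had a signal of about 3.27 or more in some library. Lower signal may have been left out, so 0 here does not show that reads were absent. Slfn9 had 8 reads summed over 2 adjacent windows, all in naive replicate 2. Slfn5 had 6.81 and 3.10 per kb when naive and 11.04 and 6.53 at peak, below the median of 12.9 over all starts tested. Its interval, set from the gene table, ended before the RefSeq start of the promoter table, so it lies upstream of that start.

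The Slfn4 promoter (chr11:83174936-83175235, plus strand) is shown with its 7 CpG sites in capitals. An unbroken run of captured windows reached from 83175101 to 83175350, across the start of the gene at 83175172.
Slfn4: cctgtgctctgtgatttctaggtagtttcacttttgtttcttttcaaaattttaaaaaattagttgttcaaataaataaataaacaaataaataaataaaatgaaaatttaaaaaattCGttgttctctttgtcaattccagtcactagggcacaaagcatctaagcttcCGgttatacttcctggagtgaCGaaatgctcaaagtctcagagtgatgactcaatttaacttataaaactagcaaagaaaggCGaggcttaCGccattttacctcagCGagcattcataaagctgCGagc
In the window with most reads (83175201 to 83175250), the naive replicates had a signal of 22.7 and 92.9 and the peak replicates 12.4 and 23.7. In the same stretch Slfn1, Slfn5 and Slfn9 held 6 CpG sites, Slfn3 5, Slfn8 4 and Slfn2 2, and the median of all promoters was 7.

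In gene bodies, Slfn5 carried the strongest signal of the family. The naive replicates had 37.8 and 72.0 per kb and the peak replicates 25.4 and 35.4 (means 54.9 ± 24.2 and 30.4 ± 7.05, SD, n = 2 per condition). Of all bodies, 90.3% of the 26411 tested had a lower mean. Stretches with many reads lay at 82956251 to 82956850 (1088 reads summed over windows and libraries, at most 278 in any window) and 82960851 to 82961200 (814 reads). In Slfn2 the naive replicates had 12.2 and 11.95 per kb and the peak replicates 31.2 and 15.9. The body leaves off captured windows in the last 500 bp of this gene. Over the whole gene, the signal summed over windows was 129 and 112 when naive and 191 and 142 at peak. The size of the Slfn2 difference thus depends on the ends left off. Slfn4, strongest at its start, was weakest in its body, with 1.29 and 0.910 per kb when naive and 4.89 and 2.21 at peak. The bodies of Slfn1, Slfn3, Slfn8 and Slfn9 ranged from 2.44 to 16.9 per kb over the 4 libraries.

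**Figure D5:**
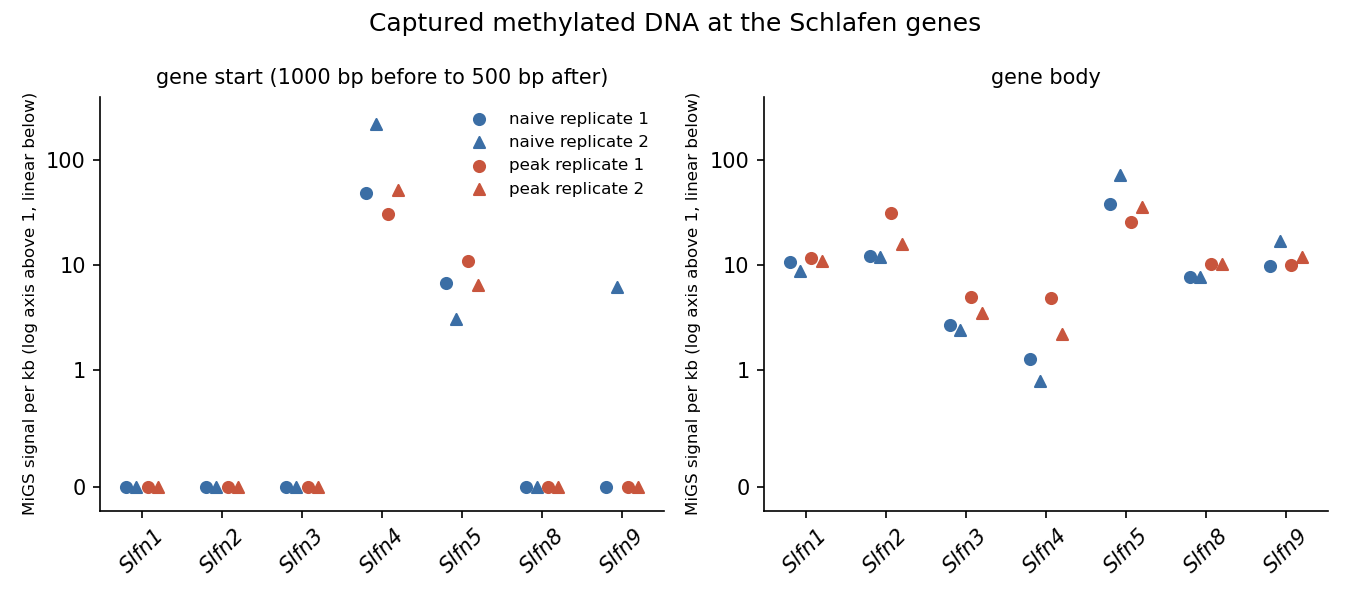
MiGS signal per kb in each of the 4 libraries (blue naive, red peak, circles replicate 1, triangles replicate 2) at the start and in the body of each Schlafen gene, on an axis that is logarithmic above 1 and linear below. Starts of Slfn1, Slfn2, Slfn3 and Slfn8, which had no deposited window, sit at 0. Slfn4 stands highest at its start, and Slfn5 in its body.

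In fits without a replicate block, no Schlafen gene passed a test for a difference in captured DNA between the conditions. Limma on log2(signal per kb + 1) called 0 of the 7 bodies and 0 of the 2 starts with at least 20 reads, and 0% of all bodies and of all starts (1003 bodies and 822 starts had an unadjusted p under 0.05). edgeR without a replicate block and DESeq2, on reads recovered from the signal and summed over windows, called 0 as well. The log2 change at the start of Slfn4 was -1.35 (SE 0.65, adjusted p = 0.886), and -0.28 without naive replicate 2, and at that of Slfn5 0.75 (SE 1.02, adjusted p = 0.906). In the bodies it was -0.78 (SE 0.42) for Slfn5, 0.84 (SE 0.39) for Slfn2 and 1.06 (SE 0.56) for Slfn4, and 0.37 (SE 0.36) for Slfn8, each with an adjusted p of 0.973. Without peak replicate 1 the body of Slfn2 was at 0.37 and that of Slfn4 at 0.62, and without peak replicate 2 that of Slfn2 was at 1.30. The body of Slfn5 was at -0.32 without naive replicate 2 and at -1.23 without naive replicate 1. Both naive values lay apart from both peak values in 6 of the 7 bodies, 5 higher and 1 lower at peak, while 28.6% of all bodies tested were apart in either direction. At the starts of Slfn4 and Slfn5 the conditions overlapped, and 32.9% of all starts tested were apart. How the biological replicates relate to the pools of mice is not stated.

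Markers of microglia were abundant in both RNA libraries and markers of blood monocytes were higher at peak. The 9 measured microglia markers summed to 13336 FPKM in the naive and 8435 FPKM in the peak library, 2 of them at least 2-fold lower (5 by upper quartile scaling, 1 by DESeq2 size factors) and none higher. Of 10 monocyte markers 8 were at least 2-fold higher and 1 lower, and their sum went from 13.6 to 121 FPKM. Ly6c2, which marks inflammatory monocytes, had 5 naive and 338 peak counts, F10 1 and 388, and Fn1 816 and 35840. Slfn2 and Slfn4 are also known from monocytes. The part of the monocyte genes in the Schlafen ratios was not tested.

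Of 12 T cell markers, 5 were at 0 counts in the naive library (Cd3e, Cd3g, Cd2, Cd8a and Cd8b1), where Cd3g and Cd2 reached 21 and 25 in the peak library. The 5 measured ones included 4 higher and none lower, and all 12 summed to 1.71 and 5.59 FPKM. Of 8 measured neutrophil markers 2 were higher and 2 lower (sums of 28.6 and 28.9 FPKM), and the granule genes Mpo and Elane were at 0 in both libraries. Of 6 B cell markers 2 had enough counts, and 1 of these, Ebf1, was lower. Of 5 NK cell markers 1 had enough counts, Klrd1, which was lower (116 and 53 counts). The other NK cell markers had more counts at peak, Gzma 4 and 25, Prf1 1 and 7, Ncr1 0 and 5, and Klrb1c 6 and 9. These B and NK cell genes were named after their values were seen. Markers of dendritic cells, border macrophages and endothelium had 2 of 4, 2 of 6 and 4 of 6 measured genes lower and none higher. Among 6 astrocyte markers 4 were lower and 1 higher, among 5 oligodendrocyte markers 2 lower, and none of 6 neuron markers reached 2-fold.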

How the data were processed

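RNA-seq counts per Ensembl gene and FPKM values were deposited by the authors in 1 table, per the file headers. The submitters' processing notes list build mm10 and the tools edgeR, featureCounts, TopHat and Bowtie2, without roles. Per the labels' protocols the RNA kit was strand-specific and removed ribosomal RNA. No source says whether strand entered the counting, so members that overlap other genes (Slfn5 with Slfn5os, Slfn9 with Mir7679, Slfn1 with Gm51911 and Slfn2 with Gm20234) are uncertain. Symbols came from a table of Ensembl IDs, and 506 rows had none. Counts were scaled by TMM (edgeR 4.0.16) over the whole table. Only genes whose counts in both libraries sum to at least 50 were compared. For calls and medians, 0.5 was added before taking log2. Folds are ratios of scaled counts. The MiGS signal per 50 bp window, as deposited by the authors, is whole reads divided by 1 factor per library (100% of values whole within 0.001). Reads summed over windows ran from 30424742 to 43970332 per library. A read that spans adjacent windows may count in each, and read numbers and minimums for genes are such sums. Windows without a deposited value were taken as 0. Signal was summed per gene body (without 500 bp at both ends) and gene start (both ends for genes without a strand in the promoter table). It was tested with limma 3.58.1 (two-sided, variance trend, Benjamini-Hochberg at 0.05, at least 20 reads). Alternatives used edgeR, DESeq2 1.42.0, other scalings, minimums and left-out libraries. Motifs were searched in RefSeq promoters, and all 7 genes matched by symbol. Alignments scored 1 for a match, -1 for a mismatch and -2 for a gap. MiGS on the sex chromosomes was not analysed here. Named genes were the 7 members, other Slfn genes, up to 4 per list with the largest ratio, cluster neighbours and the 2 nearest genes in FPKM; other genes are named as exceptions or by their place in the pathway. The members and lists were chosen with earlier results of these data known. The RNA ratio with its interval and the limma fit were tried on simulated data, and the other steps were not. Simulated RNA counts held counting error only. The spread of simulated MiGS reads was fixed beforehand and not fitted to these libraries, so it may be smaller than theirs. Some genes that these rules name are not reported here.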

Additional observations from a re-analysis of the deposited data

How the results depend on the processing

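Under every scaling, pseudocount and minimum tried, 6 of the 7 Schlafen genes stayed at least 2-fold higher and Slfn8 did not reach 2-fold. Slfn8 ranged from a log2 ratio of 0.17 to 0.40 and Slfn4 from 3.74 to 4.86. The 3.74 is the ratio of FPKM with 0.1 added to both values, which is more than the naive level of Slfn4 (0.0886). The median of the 7 was 2.61 with upper quartile scaling and 2.53 with FPKM ratios, again with 0.1 added. Under these 2 settings the median of all genes shifted by -0.20 and -0.12, and library totals shifted it by -0.12. TMM over genes with at least 50 counts, added after seeing the data, gave 2.77. It left 1666 genes higher and 1344 lower, against 1742 and 1280; library totals gave 1495 and 1550, and upper quartile scaling 1381 and 1738. With a minimum of 10 counts, higher genes numbered 7 T cell markers, 1 NK cell marker, 2 dendritic cell markers and 2 interferons. Microglia markers lower numbered 4 with library totals, 5 with upper quartile scaling and 1 with DESeq2 size factors, against 2. T cell markers higher numbered 3 with library totals and with upper quartile scaling and 5 with DESeq2 size factors, against 4. With library totals and with upper quartile scaling, lower genes numbered 6 endothelial markers against 4, 3 neutrophil markers against 2 and 1 neuron marker against 0. In MiGS, a replicate block in limma called 1 member start, that of Slfn4 (log2 change -1.35, adjusted p = 0.00588; edgeR with the block on recovered reads, adjusted p = 0.193), along with 1120 starts and 1598 bodies of all genes (edgeR 510 and 1058). With the block in limma, the body of Slfn5 had an adjusted p of 0.0504 (edgeR with the block, 0.124). The other member bodies had 0.122 or more in that limma fit. The replicate numbers have no stated meaning: deviations of same-numbered libraries correlated at 0.31 over bodies and 0.23 over starts, from 2 pairs. Without 1 library each, the start of Slfn4 ranged from -2.43 to -0.28 (the latter without naive replicate 2), and the body of Slfn9 from -0.58 to 0.16, turning to 0.16 without naive replicate 2; the cause was not tested. The bodies ranged from -1.23 to -0.32 for Slfn5, from 0.37 to 1.30 for Slfn2 and from 0.62 to 1.49 for Slfn4. With 1 RNA library per condition, no alternative replaces replication. The naive counts of Slfn4 (11) and Slfn1 (24) limit the precision of their ratios.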
